A study of Mus musculus with 20 samples.

Results

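Expression of 8 genes that encode growth cone membrane proteins and stathmins was described in mouse dorsal root ganglia, which hold the cell bodies of the sensory neurons whose axons run in peripheral nerves. The genes were Gap43, Basp1, Marcks, Marcksl1, Stmn1, Stmn2, Stmn3 and Stmn4. They were found by mapping the Ensembl identifiers of the count table, without their version, to mouse symbols, and make up 8 of the 78258 genes listed. All 8 passed the filter on low counts that left 28564 genes for testing. The study compared male mice that lacked the aryl hydrocarbon receptor gene Ahr in part of their neurons with control mice after a nerve lesion. The conditional knockout (cKO) mice had both Ahr alleles floxed and carried Thy1CRE-ERT2/EYFP, in which the neuronal Thy1 promoter drives a Cre recombinase switched on by tamoxifen, together with a yellow fluorescent marker. The control mice were Ahr f/f or f/+, no Cre is named for them, and they are titled wild type in the labels. Every mouse of both genotypes received tamoxifen at 100 mg/kg by intraperitoneal injection on 5 days at 17 weeks of age. The sciatic nerve was transected 4 weeks later, and 1 day after this lesion the lumbar ganglia, levels 4 to 6, were collected between 2 and 4 hours after lights on. Each of the 10 mice (5 cKO, 5 control) gave 1 library from the contralateral and 1 from the ipsilateral ganglia, which made 4 groups of 5 libraries. The contralateral ganglia came from the same lesioned mice. One label field names a spinal cord injury, and the protocol text, which describes the sciatic lesion, was followed here.

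GAP43, BASP1, MARCKS and MARCKSL1 are acidic proteins of the inner face of the plasma membrane that bind calmodulin or the phosphoinositide PIP2 and act on the actin cytoskeleton beneath the membrane, and protein kinase C phosphorylates them. Stathmins bind free tubulin and promote the shortening of microtubules; Stmn1 encodes the cytosolic member, while Stmn2 (SCG10), Stmn3 (SCLIP) and Stmn4 (RB3) encode neuronal members carried on vesicles to the growth cone. GAP43 and SCG10 are classic proteins of growing and regenerating axons, and both have long been used as markers of them.

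The start of each coding sequence is shown because it holds what ties these proteins to membranes and separates the cytosolic stathmin from the others. The first 27 codons were taken from the mouse reference transcripts of GENCODE release M21 (GRCm38), 5′ to 3′. Capitals mark the cysteine codons near the start of Gap43, Stmn2, Stmn3 and Stmn4, which encode the cysteines known to be palmitoylated. In Basp1, Marcks and Marcksl1 they mark the glycine codon after the start codon, which encodes the glycine that is myristoylated.
Gap43: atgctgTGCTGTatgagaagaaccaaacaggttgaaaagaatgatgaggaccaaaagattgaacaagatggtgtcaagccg
Basp1: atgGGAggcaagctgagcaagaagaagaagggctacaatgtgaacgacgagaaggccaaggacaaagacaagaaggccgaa
Marcks: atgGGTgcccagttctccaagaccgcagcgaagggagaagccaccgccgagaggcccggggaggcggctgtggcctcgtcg
Marcksl1: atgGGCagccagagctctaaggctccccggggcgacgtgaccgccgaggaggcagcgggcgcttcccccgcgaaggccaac
Stmn1: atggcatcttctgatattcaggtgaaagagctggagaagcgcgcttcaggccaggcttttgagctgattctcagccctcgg
Stmn2: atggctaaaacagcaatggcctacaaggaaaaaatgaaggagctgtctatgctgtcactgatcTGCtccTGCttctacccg
Stmn3: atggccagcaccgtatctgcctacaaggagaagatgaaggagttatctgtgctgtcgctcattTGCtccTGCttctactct
Stmn4: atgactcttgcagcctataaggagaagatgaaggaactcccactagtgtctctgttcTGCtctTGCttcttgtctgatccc
Gap43 had its cysteine codons at positions 3 and 4, counted from the start codon. Stmn2 and Stmn3 had them at positions 22 and 24, and Stmn4 at 20 and 22. Stmn1 had 0 cysteine codons in its whole coding sequence. The translated stathmins were alike, with 73.2% identity between Stmn2 and Stmn3 and 63.9% to 69.0% in the other pairs. Identity was 52.7% between Marcks and Marcksl1 and 40.1% between Gap43 and Basp1. The genes lie apart in the GRCm38 annotation. Gap43 is on chromosome 16, Basp1 on 15, Marcks on 10, Stmn2 on 3, Stmn3 on 2 and Stmn4 on 14, while Marcksl1 and Stmn1 are both on 4. No gene of that annotation overlaps a member on the opposite strand. The related locus Marcksl1-ps4, a processed pseudogene, had 0 to 2 counts per library.

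Libraries held 76.2 to 118.5 M exonic counts (M, mega), and each member had at least 1472 counts in every library. Ahr had 24.2 ± 2.102 CPM (counts scaled to a library of 1 M counts) in control and 20.4 ± 0.536 CPM in cKO contralateral libraries (SD, n = 5 each), with no overlap, and the difference was not called (edgeR quasi-likelihood test, adjusted p 0.103). On the ipsilateral side it had 34.4 ± 2.86 and 31.9 ± 2.94 CPM. In whole ganglia, fewer cells of a type and less RNA per cell cannot be told apart. Atf3, a transcription factor of injured sensory neurons, averaged 11.4 CPM contralateral and 426.5 CPM ipsilateral in control mice, and 9.24 and 416.9 CPM in cKO mice. All 19 sensory neuron markers were tested and had counts, and their summed level was 14720 to 17430 CPM over all libraries, so the defining cells of the labelled tissue were represented. Muscle markers varied most, from 7.497 to 2109 CPM in sum, highest in the contralateral library of cKO mouse H100. The replicates are separate mice.

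Levels were compared between genes as CPM per kilobase of the principal transcript. In control contralateral ganglia Stmn2 was highest at 527.9, followed by Stmn3 at 432.4, Stmn1 at 222, Basp1 at 147, Gap43 at 134, Marcks at 25.4, Stmn4 at 15.4 and Marcksl1 at 13.0 CPM per kilobase. The neuronal stathmins thus included both the most abundant gene of the set and one of the least abundant. Neighbours in this order overlapped between libraries only for Stmn4 and Marcksl1 there. In cKO contralateral ganglia that pair overlapped again, and Basp1 (138) overlapped Gap43 (136). On the ipsilateral side the order changed at 2 places in both genotypes. Stmn4 stood at 57.8 in control and 58.3 in cKO ipsilateral ganglia, above Marcks at 35.4 and 35.9 CPM per kilobase, without overlap on this scale. Gap43 at 167 and 166 stood slightly above Basp1 at 162 in both genotypes, with overlapping libraries. This order depends on the length used. Over all merged exons, control contralateral ganglia had Stmn3 first at 432.4, then Stmn2 at 195, Basp1 at 136, Gap43 at 125.0, Stmn1 at 123, Marcks at 25.4, Marcksl1 at 13.0 and Stmn4 at 10.4 CPM per kilobase. On that scale the mean of Stmn4 was 39.3 in control and 39.6 in cKO ipsilateral ganglia, closer to Marcks. The length of Marcks is the same on both scales, and its highest ipsilateral library had 41.9 in control and 38.5 CPM per kilobase in cKO mice. With merged exons the libraries of Stmn4 and Marcks thus overlapped in both genotypes.

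The first comparison asked which members differed between the lesioned and the intact side of the same mice. The edgeR tests given here used a mean per group and did not pair the libraries of a mouse. A fit that paired them called the same members and is described in the closing sections. In control mice 6 of the 8 members were called higher on the ipsilateral side and 0 lower, while 13.8% of all tested genes were called higher and 16% lower (edgeR, adjusted p under 0.05). These were Stmn4, Marcks, Marcksl1, Gap43, Stmn2 and Basp1. In cKO mice 5 were called higher and 0 lower, against 16.2% higher and 15.1% lower of all genes; Stmn2 did not pass there. The median log2 fold change of the 8 members was 0.24 in control and 0.26 in cKO mice, and that of all tested genes was -0.0047 and -0.03. Every ipsilateral library stood above every contralateral one for 4 members in control and 5 in cKO mice, against 11.3% and 11.9% of all tested genes. All of these increases were below 1.4-fold except that of Stmn4.

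**Figure D1:**
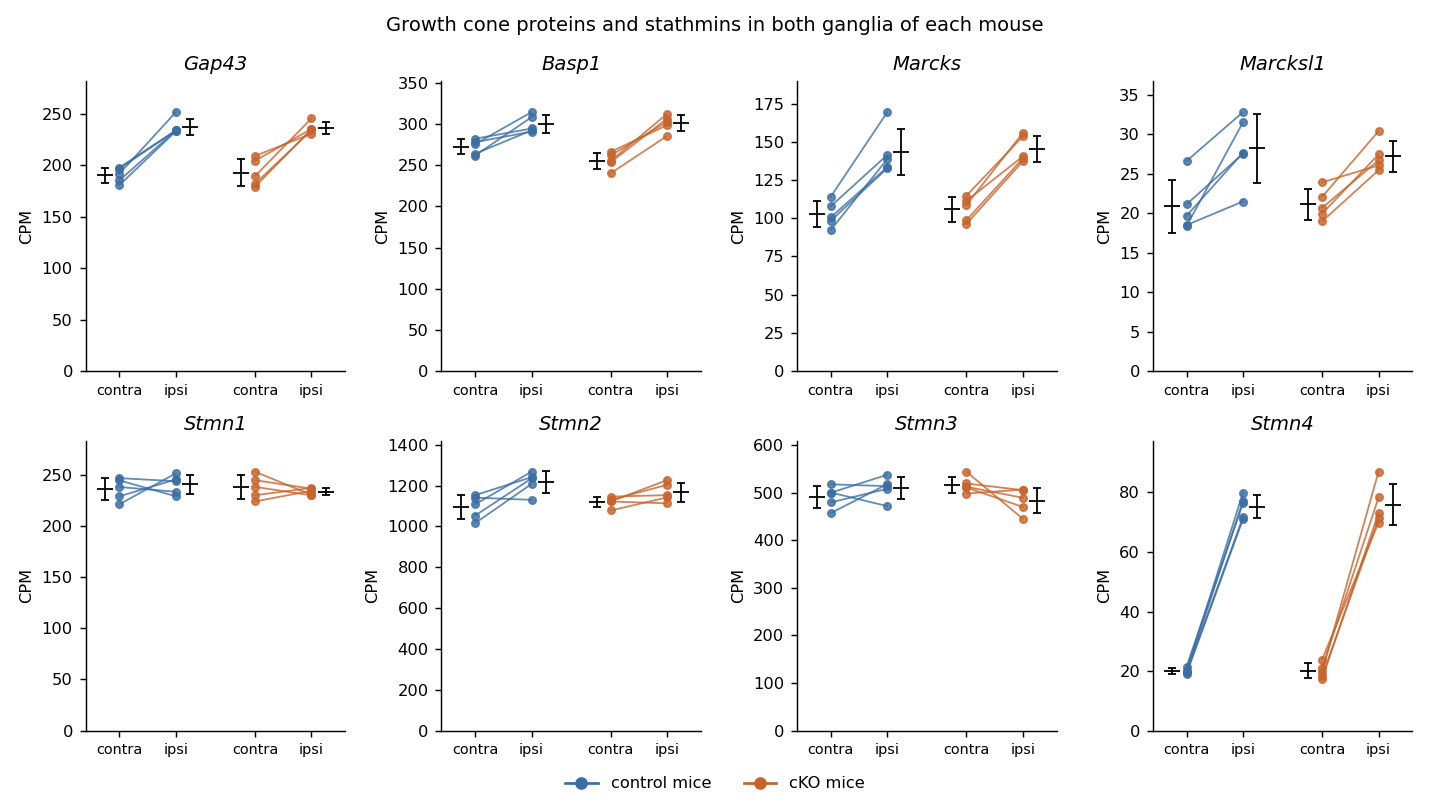
CPM of each of the 8 genes (vertical axes, separate scales) in the 4 groups of 5 libraries; points are libraries and bars are the mean and SD. Stmn4 separates the sides widely in both genotypes, while the ranges of Stmn1 and Stmn3 overlap throughout.

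Gap43, a calmodulin-binding substrate of protein kinase C, rose on the lesioned side in both genotypes. In control mice H62, H63, H65, H96 and H97 it had 181, 198, 192, 197 and 185 CPM in the contralateral and 233, 234.0, 252, 234 and 234 CPM in the ipsilateral ganglia. In cKO mice H61, H64, H95, H99 and H100 it had 189, 179, 209, 182 and 204 CPM contralateral and 246, 235, 231, 234 and 235 CPM ipsilateral. The sides did not overlap in either genotype, and mice H65 (control) and H61 (cKO) had the highest ipsilateral level of their genotype. The log2 fold change was 0.32 (SE 0.0400, 1.25-fold, edgeR adjusted p 2.92e-06) in control and 0.29 (SE 0.0400, 1.22-fold, adjusted p 8.16e-06) in cKO mice. All 10 mice had more on the lesioned side.

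Basp1, also called CAP23, which encodes a myristoylated protein that gathers PIP2 at the membrane, had the smallest called increase in control mice. Its contralateral levels were 278, 282, 276, 262 and 264 CPM in the control mice, in the order given above, and the ipsilateral ones 291, 295, 315, 308 and 292 CPM. The cKO mice had 255, 240.2, 254, 266 and 262 CPM contralateral and 313, 286, 307, 299 and 303 CPM ipsilateral. Again the sides did not overlap, and the 2 ipsilateral groups had nearly the same mean, 300.1 ± 10.7 and 301 ± 10.1 CPM (SD, n = 5). The contralateral means were 272 ± 8.999 in control and 255 ± 9.88 CPM in cKO mice. The log2 fold change was 0.14 (SE 0.0336, 1.10-fold, edgeR adjusted p 0.00278) in control and 0.24 (SE 0.0336, 1.18-fold, adjusted p 1.20e-05) in cKO mice. All 10 mice had more Basp1 on the lesioned side, by 0.06 to 0.24 on the log2 scale in control and 0.17 to 0.29 in cKO mice.

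Marcks, which encodes the widely expressed actin-binding and PIP2-binding kinase C substrate, also rose in both genotypes. Control mice had 98.4, 108, 101, 114 and 92.3 CPM contralateral and 133, 141, 133, 169 and 139 CPM ipsilateral. The cKO mice had 96.2, 115, 111, 98.6 and 109 CPM contralateral and 137, 154, 140.4, 139 and 156 CPM ipsilateral. No ipsilateral library was as low as any contralateral library of its genotype, and mouse H96 stood highest in control mice on both sides. This gave a log2 fold change of 0.48 (SE 0.0694, 1.39-fold, edgeR adjusted p 1.98e-05) in control and 0.46 (SE 0.0694, 1.37-fold, adjusted p 3.53e-05) in cKO mice.

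Marcksl1, the smaller relative of Marcks, varied most between control mice. Control mice had 19.6, 21.1, 18.5, 26.6 and 18.4 CPM contralateral and 27.6, 27.5, 21.5, 32.8 and 31.5 CPM ipsilateral. The cKO mice had 19.0, 20.7, 23.9, 19.9 and 22.1 CPM contralateral and 25.4, 26.7, 26.0, 27.4 and 30.4 CPM ipsilateral. In control mice the sides overlapped, through contralateral H96 and ipsilateral H65, although each mouse was higher on its own lesioned side; in cKO mice they did not overlap. By edgeR the log2 fold change was 0.44 (SE 0.108, 1.35-fold, adjusted p 0.00421) in control and 0.37 (SE 0.108, 1.29-fold, adjusted p 0.0137) in cKO mice. Without mouse H100 the cKO value was 0.34, with an adjusted p of 0.0517.

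Marcks and Marcksl1 are expressed by many cell types, so marker levels are given beside them. The summed level of 6 satellite glia markers was 1503 to 1666 CPM contralateral and 1693 to 1911 CPM ipsilateral in control mice, and 1502 to 1839 and 1618 to 1827 CPM in cKO mice; 2 of the 6 were called higher and 1 lower in each genotype. The 13 macrophage markers summed to 104 to 199 CPM contralateral and 123 to 238 CPM ipsilateral in control mice and to 103 to 277 and 158 to 266 CPM in cKO mice, with 1 called higher in control and 0 in cKO mice. The 7 endothelial markers summed to 96.02 to 137 and 113 to 166 CPM in control mice and to 112 to 165 and 127 to 150.4 CPM in cKO mice; 3 were called higher in control mice and 0 in cKO mice. The 10 Schwann cell markers summed to 3871 to 5439 CPM over all groups, with 1 called higher in control and 1 lower in cKO mice. The 6 fibroblast markers summed to 802 to 1356 CPM contralateral and 924 to 1519 CPM ipsilateral in control mice. In cKO mice the sums were 935 to 2236 and 848 to 1558 CPM, and 0 were called in either genotype. Over all tested genes, 13.8% were called higher and 16% lower in control mice, and 16.2% and 15.1% in cKO mice. No marker of these lists was at 0 in all libraries. The part of these cells in the results for Marcks and Marcksl1 was not tested.

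Stmn4, which encodes the neuronal stathmin RB3, was the member that changed most. It had 21.5, 19.5, 19.6, 20.2 and 19.2 CPM contralateral and 76.5, 71.7, 77.2, 79.9 and 71.1 CPM ipsilateral in control mice. In cKO mice it had 17.4, 19.8, 20.99, 18.2 and 23.9 CPM contralateral and 73.2, 87.0, 78.3, 71.3 and 69.9 CPM ipsilateral. The sides lay far apart in both genotypes, and mouse H64 had the highest ipsilateral level. The log2 fold change was 1.91 (SE 0.0733, 3.76-fold, edgeR adjusted p 9.02e-14) in control and 1.92 (SE 0.0733, 3.79-fold, adjusted p 7.45e-14) in cKO mice. Only 276 of the 28564 tested genes (0.966%) in control and 280 (0.980%) in cKO mice had a higher log2 fold change. Single mice ranged from 3.55-fold to 3.96-fold in control and from 2.93-fold (H100) to 4.39-fold (H64) in cKO mice. Of the 19 sensory neuron markers, 1 was called higher and 4 lower in control mice and 2 higher and 4 lower in cKO mice. Their summed level was 15120 to 17260 CPM contralateral and 15190 to 16840 CPM ipsilateral in control mice, and 14840 to 17430 and 14720 to 15900 CPM in cKO mice. Of all tested genes, 13.8% were called higher and 16% lower in control mice, and 16.2% and 15.1% in cKO mice. The part of neuron content in the Stmn4 result was not tested. On the log2(FPKM + 1) scale the Stmn4 change was smaller, 1.29 in control and 1.3 in cKO mice, since the pseudocount of 1 is close to its mean contralateral FPKM of 1.15 in control mice.

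Stmn2, the gene of SCG10 and the most abundant member by the principal transcript, rose slightly in control mice. Its levels there were 1053, 1153, 1108, 1016 and 1141 CPM contralateral and 1235, 1241, 1268, 1208 and 1130 CPM ipsilateral. The sides overlapped because mouse H97 had slightly less on its lesioned side, while the other 4 mice had more. The log2 fold change was 0.15 (SE 0.0398, 1.11-fold, edgeR adjusted p 0.00549). In cKO mice the levels were 1122, 1122, 1078, 1146 and 1129 CPM contralateral and 1227, 1113, 1142, 1153 and 1204 CPM ipsilateral, with 4 of 5 mice higher. The value there was 0.06 (SE 0.0398, 1.04-fold, adjusted p 0.266). The genotypes were not shown to differ in this response, with a difference of -0.09 (SE 0.0562, adjusted p 0.585).

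Stmn1 and Stmn3 did not pass the test in either genotype. Stmn1, the cytosolic member, averaged 236 ± 10.7 and 240.4 ± 9.19 CPM (SD, n = 5) on the contralateral and ipsilateral sides of control mice and 238 ± 11.6 and 233 ± 3.35 CPM in cKO mice. Its log2 fold changes were 0.03 (SE 0.0361, adjusted p 0.617) and -0.03 (SE 0.0361, adjusted p 0.628) by edgeR, and 2 of 5 mice of each genotype had more on the lesioned side.

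Stmn3, the gene of SCLIP, had values of opposite sign in the genotypes. Control mice had 479.9, 518, 500.3, 458 and 501 CPM contralateral and 509, 514, 538, 518 and 472 CPM ipsilateral. The cKO mice had 499, 545, 511, 513 and 520 CPM contralateral and 507, 445, 470.4, 490 and 506 CPM ipsilateral. The sides overlapped in both genotypes; 3 of 5 control mice and 1 of 5 cKO mice had more on the lesioned side. Its log2 fold change was 0.05 (SE 0.0420, edgeR adjusted p 0.373) in control and -0.1 (SE 0.0420, adjusted p 0.0846) in cKO mice. The cKO value passed the threshold without mouse H61 (-0.13, adjusted p 0.0492) and when limma was run on log2-transformed FPKM (-0.12 with a pseudocount of either 1 or 0.1, adjusted p 0.0240 and 0.0235). Without mouse H64, which had the lowest single-mouse log2 ratio (-0.29), it was -0.05 (adjusted p 0.433).

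**Figure D2:**
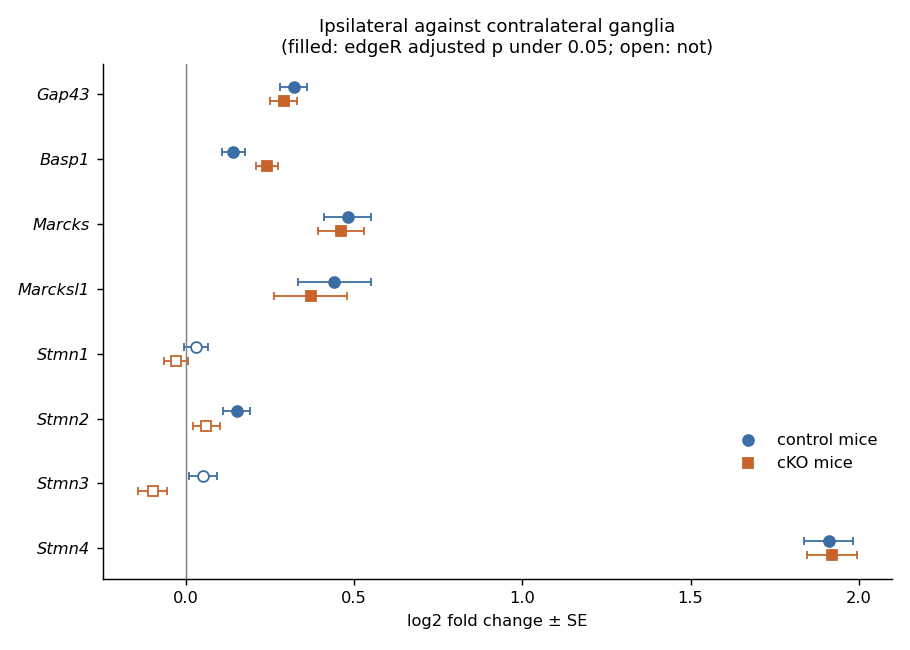
Ipsilateral over contralateral log2 fold change of each gene in control and cKO mice. Points with bars are the edgeR estimate and its SE, filled where the gene was called. Stmn4 stands near 1.9 in both genotypes, and the edgeR estimates of the other 7 genes lie below 0.5. Single mice, which are not drawn, reached 0.78 (Marcksl1 in H97).

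The make-up of the stathmin family by CPM per kilobase was also compared between sides. Stmn4 made up 1.29% ± 0.110 of the family total contralateral and 4.38% ± 0.156 ipsilateral in control mice, and 1.25% ± 0.147 and 4.61% ± 0.569 in cKO mice (SD, n = 5). The ranges did not overlap, at 1.19% to 1.42% against 4.16% to 4.59% in control mice and 1.10% to 1.46% against 4.12% to 5.51% in cKO mice. Stmn3 made up 35.8% to 36.3% of the total contralateral and 33.6% to 34.5% ipsilateral in control mice. Its share in cKO mice was 36.3% to 38.0% and 32.3% to 34.2%, so it was lower on the lesioned side without overlap in both genotypes although its own level did not pass the test. Stmn1 made up 18.2% to 19.0% contralateral and 16.3% to 17.8% ipsilateral in control mice, so its share was also lower there without overlap. In cKO mice the Stmn1 share was 17.2% to 19.5% and 17.0% to 17.9%, with overlap. Stmn2 had a mean share of 43.7% to 44.4% in every group. The family total averaged 1198 ± 57.1 and 1320 ± 51.5 CPM per kilobase in control and 1235 ± 20.4 and 1267 ± 43.1 in cKO mice. A share of one gene moves with all others, and no test was made on shares. The shares depend on the transcript length used. With merged-exon lengths Stmn3 had the highest share, with group means of 53.5% to 57.7%, and Stmn2 had 25.3% to 26.2%. The mean Stmn4 share was then 1.38% and 4.73% in control and 1.33% and 5.00% in cKO mice.

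**Figure D3:**
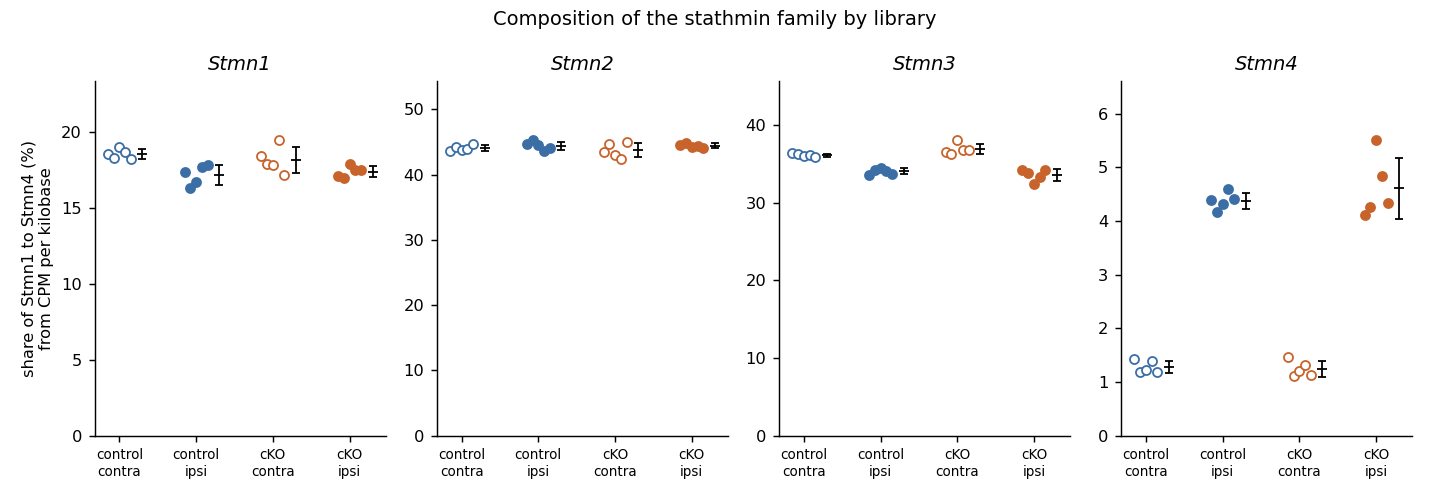
Share of each stathmin gene in the family total of CPM per kilobase (percent) for each library, grouped by genotype and side. Stmn4 has 1.10% to 1.46% in contralateral and 4.12% to 5.51% in ipsilateral libraries, and Stmn2 has the highest share in all 4 groups with the principal-transcript lengths plotted; with merged-exon lengths Stmn3 does.

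The genotypes were compared next on each side, using the same 20 libraries. None of the 8 members was called between cKO and control mice. On the contralateral side 0.0735% of all tested genes were called (21 genes by edgeR), and 1 member had an unadjusted p under 0.05, against 5006 of all genes. That member was Basp1, at 272 ± 8.999 CPM in control and 255 ± 9.88 CPM in cKO contralateral ganglia (SD, n = 5), with overlapping ranges. Its log2 difference was -0.09 (SE 0.0336, or -6.20%, unadjusted p 0.0124, adjusted p 0.169). The next was Stmn3, at 491 ± 23.2 and 517 ± 17.0 CPM, with a log2 difference of 0.07 (unadjusted p 0.0899, adjusted p 0.370). The other 6 members differed by at most 0.05 on the log2 scale. The number of genes called on this side changed with the mice, from 4 without H95 to 3326 without H99, but it held 0 members in each such fit, and in DESeq2, which called 1041 genes. The 6 fibroblast markers summed to 802 to 1356 CPM in control and 935 to 2236 CPM in cKO contralateral ganglia, with 0 called, and their part in these differences was not tested.

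On the ipsilateral side 0.007% of all tested genes were called (2 genes), and 0 members had an unadjusted p under 0.05, against 674 genes. Stmn4 averaged 75.3 ± 3.79 CPM in control and 75.9 ± 6.96 CPM in cKO ipsilateral ganglia (SD, n = 5), a log2 difference of 0.01. Gap43 averaged 237 ± 8.05 and 236 ± 5.58 CPM there, a log2 difference of -0.01. Stmn3 had the largest difference, -0.08 (unadjusted p 0.0799), at 510.2 ± 24.0 and 484 ± 26.0 CPM.

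The difference between the genotypes in the response to the lesion was tested as an interaction. By edgeR 0% of all tested genes were called, 2799 genes had an unadjusted p under 0.05, and the smallest adjusted p was 0.485. DESeq2 called 11 genes, and edgeR called 43 without mouse H99; none was a member. For Stmn4 the difference (cKO response minus control response) was 0.01 (SE 0.101). For Gap43 it was -0.03 (SE 0.0565) and for Marcks -0.02 (SE 0.0980). Stmn3 had the lowest unadjusted p, 0.0184, with -0.15 (SE 0.0593, adjusted p 0.485), and -0.1 without mouse H64. Basp1 was next with 0.1 (SE 0.0475, unadjusted p 0.0540, adjusted p 0.515). Single-mouse log2 ratios overlapped between the genotypes for both genes, at -0.08 to 0.18 and -0.29 to 0.02 for Stmn3.

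**Figure D4:**
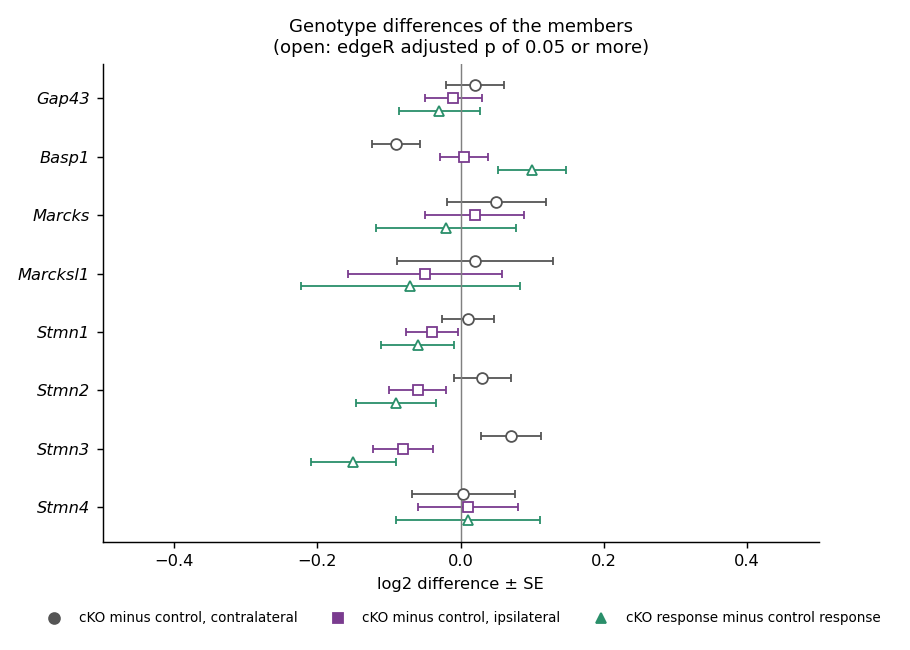
Difference between cKO and control mice in log2 units for each gene, on the contralateral side, on the ipsilateral side and in the response to the lesion (interaction), with SE bars from edgeR. None of the 8 genes was called; the value farthest from 0 is that of Stmn3 in the interaction, -0.15.

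Genes with the most similar profile over the 20 libraries were found by the root mean square difference of log2 CPM, after each of 13112 genes with a symbol and a mean of at least 5 CPM was centred on its own mean. Nearest to Stmn4 was Nfil3, the gene of a leucine zipper transcription repressor, at 0.0820, and then Lmo7 at 0.135, while the median over all genes was 0.977. Nfil3 had a log2 fold change of 1.89 in both genotypes, and Lmo7 1.96 in control and 2.04 in cKO mice. Gap43 was nearest to M6pr (0.0478) and Atrip (0.0526), and Basp1 to Gp1bb (0.0425) and Akirin2 (0.0429). Marcks was nearest to Rab31 (0.0753) and Stx5a (0.0797). Marcksl1 was nearest to Sema4a (0.118) and Marcks itself (0.120), the only pair of members found this way. Stmn1 was nearest to Wdr83os (0.0361) and Capza2 (0.0379), Stmn2 to Anxa2 (0.0244) and Serpinb6a (0.0281), and Stmn3 to Sod1 (0.0191) and Cox6b1 (0.0217).

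The other genes of these pathways were read from 7 lists of 98 genes in all, which are described by counts only. Of all tested genes, 13.8% were called higher and 16% lower in control mice, and 16.2% and 15.1% in cKO mice. The counts of every list below stand beside these shares, and no list was tested against them. Of 24 tested actin-side growth cone and adhesion genes, 7 were called higher and 4 lower in control mice and 7 and 6 in cKO mice, with a median log2 fold change of 0.07 and 0.04. Cttn, the gene of cortactin, rose on the log2 scale by 0.41 in control mice (edgeR adjusted p 9.34e-09) and by 0.49 in cKO mice (4.38e-10). Gprin1, which encodes a membrane protein that binds G proteins and promotes neurite growth, rose by 0.37 and 0.64 in control and cKO mice. Its relative Gprin3 fell by 0.59 and 0.85, and Palm, the gene of the palmitoylated membrane protein paralemmin, fell by 0.21 and 0.15.

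Of 16 tested genes for kinases of GAP43 and MARCKS, calmodulin and relatives, 3 were called higher and 6 lower in control mice and 2 and 7 in cKO mice. Add2, an adducin that caps actin filaments, rose by 0.23 in control mice (edgeR adjusted p 0.00272) and by 0.36 in cKO mice (adjusted p 2.72e-05). Prkcz, an atypical protein kinase C, fell by 0.41 and 0.36. Prkca, the gene of protein kinase C alpha, fell by 0.37 in control mice and had -0.14 (adjusted p 0.139) in cKO mice. Of the genes for proteins that bind Gap43 mRNA, 4 of 5 were tested, with 1 higher and 2 lower in control and 2 higher and 0 lower in cKO mice. Elavl3, a neuronal Hu protein, rose by 0.23 and 0.4. Its relatives Elavl2 and Elavl4, whose product HuD binds Gap43 mRNA, fell by 0.17 and 0.15 in control mice; the cKO values were -0.13 (adjusted p 0.0512) and -0.1 (adjusted p 0.144).

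Of 10 palmitoyl transferase and thioesterase genes, whose enzymes add or remove palmitate at cysteines such as those marked above, 2 were called higher and 3 lower in control mice and 4 and 2 in cKO mice. Zdhhc3 rose by 0.23 and 0.24 and Zdhhc2 by 0.15 and 0.21 in control and cKO mice, and the thioesterase gene Lypla1 fell by 0.17 and 0.21. Zdhhc17 fell by 0.16 in control mice and had -0.03 (edgeR adjusted p 0.682) in cKO mice. Of 10 stathmin kinase genes, 0 were called higher and 1 lower in control mice, and 1 higher and 0 lower in cKO mice. The gene called in control mice was Camk2a, which fell by 0.26 and had -0.04 (adjusted p 0.711) in cKO mice.

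Of the genes for other microtubule destabilisers and severing enzymes, 10 of 11 were tested, with 0 called higher and 3 lower in control mice and 1 higher and 0 lower in cKO mice. Katnal1, of the katanin family of severing enzymes, fell by 0.15 in control mice and had -0.06 in cKO mice (edgeR adjusted p 0.275). Of 22 genes for microtubule stabilisers and end-binding proteins, 6 were called higher and 4 lower in control and 10 and 1 in cKO mice, with a median of 0.05 and 0.08. Map6, whose product makes microtubules stable to cold, rose from 334 to 485 CPM in control mice, by 0.54 (adjusted p 9.49e-09), and by 0.59 in cKO mice. Crmp1, a collapsin response mediator, rose by 0.5 and 0.68. Dcx, the gene of doublecortin, fell by 0.51 in control mice and had -0.23 (adjusted p 0.122) in cKO mice, and Map7 fell by 0.31 and 0.23. No gene of the 7 lists was called between the genotypes on either side or in the interaction by edgeR, so the different counts in the genotypes are not shown to be a difference.

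**Figure D5:**
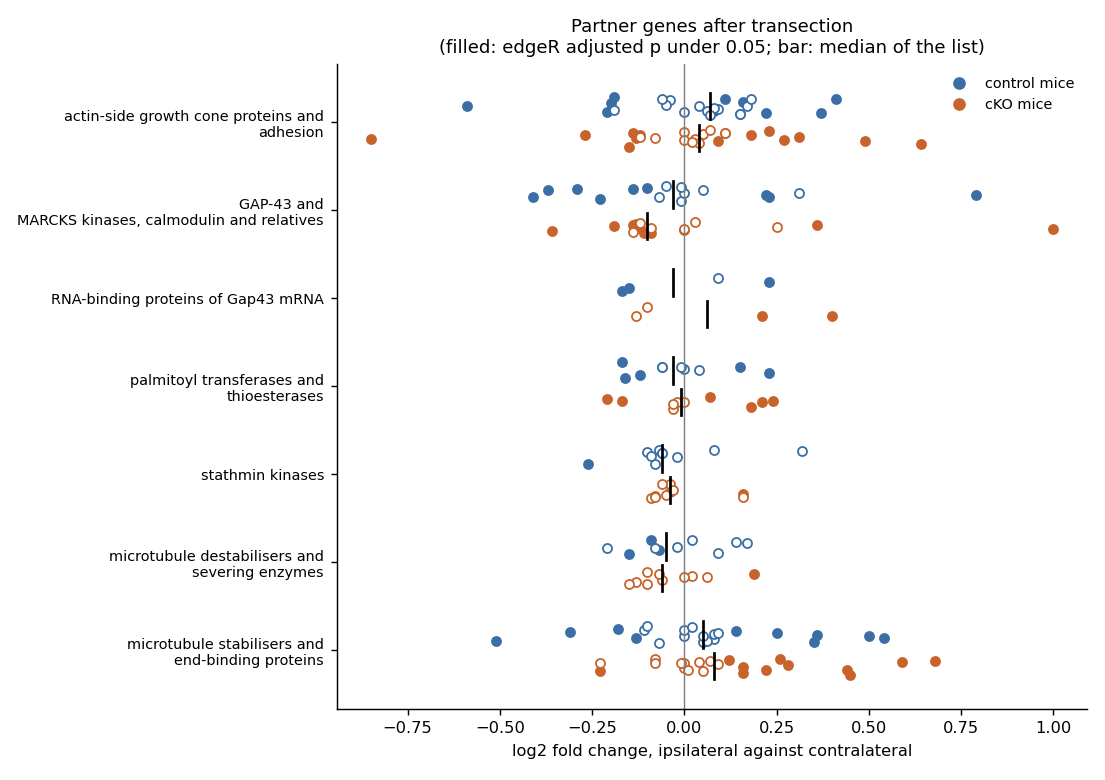
Ipsilateral over contralateral log2 fold change of each tested gene of the 7 pathway lists in control and cKO mice, with called genes marked. The list medians lie between -0.1 and 0.08.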

How the data were processed

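RNA was sequenced from whole ganglia as stranded mRNA libraries with paired 150 bp reads, per the labels' protocols. The authors deposited exonic counts per gene, which are whole and not normalised, and FPKM. The submitters' processing notes name HISAT2, Picard, mm10 and mm39; the counting program, annotation release and strand setting are not given in the sources used here. The FPKM of every member, deposited by the authors, equalled its CPM before TMM scaling per kilobase of the whole gene span, introns included (implied length equal to the span after rounding to a whole base), so FPKM were used only within genes.

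Symbols came from GENCODE M21; 51487 of 78258 identifiers matched. Counts were fitted in R 4.3.3 with edgeR 4.0.16 (TMM, filterByExpr with a minimum count of 10 and a minimum total of 15, quasi-likelihood F-test, robust). All 20 libraries entered 1 fit, with a mean per group. Genes were called at an adjusted p under 0.05 (Benjamini-Hochberg, over 28564 genes). CPM are TMM-normalised, given as mean ± SD. The fit was tested on simulated data.

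The members, lists and tests were chosen with earlier results of these data known. Named are the 8 members, Ahr, Atf3, the 2 nearest profiles of each member, and in each list the 2 called genes at either end of the log2 fold changes of control mice. Some genes that this rule names are not reported here.

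Both libraries of a mouse carry its number in the labels and are paired. Their deviations from the group means correlated by 0.186 (median over 10 mice, -0.0546 to 0.361), and 7 mice exceeded 0.1. The replicate block (mouse as a term) was an alternative. Others were DESeq2 1.42.0, limma-voom (limma 3.58.1) with a random mouse effect, scaling by RLE, 2 other filters (none, or mean CPM of 1 or more), limma on log2-transformed FPKM (pseudocount 1 or 0.1), fits of the compared libraries only, a covariate for the mouse number range, and leaving out each mouse. Over 40 pairs of replicate libraries, chi-square divided by its degrees of freedom was 4.97 to 52.7, above counting error. The title of 1 mouse gives a shortened number, and its library name, H61, was used.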

Additional observations from a re-analysis of the deposited data

Results flagged for a closer look

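In groups of 5 values, a sample was singled out when its gap to the nearest other value exceeded 0.71 of the range of the group (Dixon's criterion). Of 48 groups of member values 3 met it, and 2.4 are expected by chance. Gap43 in control ipsilateral ganglia had 252 CPM in mouse H65 and 233 to 234.0 CPM in the other 4, a gap of 0.957 of the range; the same library had the highest sum of muscle markers among the control ipsilateral libraries, 799.8 CPM, and its part was not tested. Marcks in control ipsilateral ganglia had 169 CPM in mouse H96 and 133 to 141 CPM in the others, a gap of 0.764. Among the control ipsilateral libraries this one had the highest sums of macrophage (237.7 CPM), fibroblast (1519 CPM) and Schwann cell markers (5439 CPM). Its sums of sensory neuron and muscle markers were not the highest, and the part of these cells was not tested. The log2 ratio of ipsilateral to contralateral Marcksl1 in cKO mice was 0.12 in mouse H95 and 0.37 to 0.46 in the others, a gap of 0.726. Without any 1 mouse these genes stayed called in both genotypes, except Marcksl1 in cKO mice without H100.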

How the results depend on the processing

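The lesion comparisons were recomputed under 20 settings, 10 of which left out 1 mouse, and each genotype comparison and the interaction under 19: the replicate block could not be used between genotypes, and the interaction uses all libraries. In control mice 6 members were called in every setting. In cKO mice it was 4 to 6, with 4 without H100 (Marcksl1 not called) and 6 without H61 and on log2 FPKM (Stmn3 called). With the replicate block, which pairs the libraries of a mouse, 6 and 5 members and 8559 and 9015 genes were called for the lesion in control and cKO mice and 0 in the interaction, and no member's call changed. The genotype comparisons and the interaction held 0 members in every setting run. Their gene counts varied more. On the contralateral side edgeR called 21 genes, DESeq2 1041, edgeR without a filter 50, with a mean CPM of at least 1 45, with only the libraries compared 2, and limma on log2 FPKM 6 or 7 (pseudocount 1 or 0.1). Leaving out 1 mouse gave 4 (without H95) to 3326 (without H99), with 6 without H100, 174 without H61, 22 without H62, 5 without H63, 12 without H64, 10 without H65, 10 without H96, 5 without H97. The interaction had 0 genes by edgeR, 11 by DESeq2 and 0 to 43 (43 without H99) when 1 mouse was left out. Uncalled values near 0 changed sign. On the contralateral side the genotype difference of Marcksl1 was -0.02 with a covariate for the mouse number range and -0.01 to 0.13 without 1 mouse, and that of Stmn1 -0.01 to 0.04. On the ipsilateral side Gap43 had 0.01 on log2(FPKM + 0.1) and, without 1 mouse, -0.02 to 0.02, Marcks -0.01 to 0.09, Stmn4 -0.04 to 0.04 and Marcksl1 -0.13 to 0.01. In the interaction Stmn4 had -0.05 to 0.11 and Marcksl1 -0.12 to 0.01 without 1 mouse. The cause was not tested for any of these. No test of depth was run; each member had at least 1472 counts in every library. Mice numbered H61 to H65 and H95 to H100 gave a mean Stmn4 log2 ratio of 1.89 and 1.94 in controls and 2.1 and 1.81 in cKO mice; the labels do not say what the number ranges stand for.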

Other observations

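The deposited FPKM rank the members differently from their CPM per kilobase of transcript. In control contralateral ganglia the authors' FPKM averaged 61.01 for Stmn3, 42.6 for Stmn1, 20.9 for Stmn2, 18.5 for Marcks, 8.68 for Marcksl1, 5.39 for Basp1, 2.06 for Gap43 and 1.15 for Stmn4. By this scale Marcksl1 stood above Gap43, whereas per kilobase of the principal transcript Gap43 had 134 and Marcksl1 13.0 CPM. The length behind the FPKM of each member was its whole gene span, 92210 bases for Gap43 against 1523 bases of merged exons, so the order of these FPKM should not be read as an order of transcript levels.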
